A study of Mus musculus with 24 samples.

Results

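The 45 genes described here encode the factors that act on RNA polymerase II (RNAPII) after initiation, from promoter-proximal pausing to cleavage of the transcript and termination. They were taken from a list of 47 symbols naming subunits of 9 groups of elongation and termination factors. No measured value served as a rule for that choice, but earlier results of these data were known when it was made. The expression table held counts for 21553 genes, and all 45 members were among them, 7 of them under an older symbol. All 45 also passed the filter on low counts, which kept 16627 genes for testing.

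The study asked how a slow RNAPII affects cells as they pass from pluripotency to neurons. Poly(A) RNA-seq was made from 24 samples, with 3 replicates in each of 8 groups of 2 genotypes and 4 stages. WT cells were the parental E14 mouse embryonic stem cells (ESCs), and slow/slow cells carried the R749H substitution in both alleles of Polr2a, the gene of the largest RNAPII subunit, introduced by 2 successive rounds of gene targeting in those ESCs. The labels give no other allele or drug that differed between the groups, and all differentiated groups were derived in culture from these 2 lines. The stages were undifferentiated ESCs, neural progenitors (NPCs) collected on day 7 of culture as a monolayer, cells sorted for the surface marker PSA-NCAM at day 10 (PSA-NCAM+ cells), and neurons collected 14 days after replating at day 7. Slow/slow cells were plated for the NPC and PSA-NCAM+ stages at 3-fold the density of WT cells (30000 against 10000 cells per cm2), so density and genotype cannot be told apart there. For the neurons, the labels give no density for the cultures before replating at day 7. Whether those cultures also differed in density is not known here. The number of targeted clones behind the slow/slow libraries is not given in the sources used here. A property of 1 clone and an effect of the mutation thus cannot be told apart, and the p-values measure the spread between these cultures. For gene levels that spread was estimated over all 8 groups together. Standard errors and p-values of a stage in the joint fit therefore do not reflect the spread of that stage alone.

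RNAPII initiates at a promoter and soon pauses, held by the DRB sensitivity-inducing factor (DSIF, Supt4 and Supt5) and the negative elongation factor (NELF). The kinase P-TEFb (Cdk9 with a cyclin T) phosphorylates DSIF, NELF and the carboxy-terminal domain (CTD) of RNAPII and releases the polymerase, and the 7SK ribonucleoprotein with Hexim1 and Larp7 keeps P-TEFb inactive until it is needed. During elongation the PAF complex, histone chaperones, TFIIS and topoisomerases ease passage through chromatin and supercoiled DNA, and at the end of the gene the cleavage and polyadenylation machinery cuts the transcript before the exonuclease Xrn2 helps to dislodge the polymerase.

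Total counts per sample ranged from 32974432 to 104466886, and no library pair held identical values. Libraries of ESCs, NPCs and neurons correlated with their group mates at 0.994 to 0.997 on average, whereas the PSA-NCAM+ libraries were less alike, with slow/slow replicate 1 standing apart at 0.962. Polr2a did not pass the test in ESCs, NPCs or PSA-NCAM+ cells, and fell in slow/slow neurons from 307 to 332 CPM (counts scaled to the size of the library) in WT to 159 to 176 CPM (log2 change −0.94 ± 0.16 (SE), FDR = 7.76e-05), although gene counts do not separate the alleles. WT ESCs and WT neurons carried their markers. The 7 pluripotency genes summed to 5813 to 6321 CPM in WT ESCs and 101.8 to 132.4 CPM in WT neurons. The 7 neuronal genes summed to 206 to 251 CPM and 3594 to 3918 CPM. The WT stages between them were less clearly marked. The 6 progenitor genes summed to 628 to 680 CPM in WT ESCs, 443 to 472 CPM in WT NPCs and 708 to 922 CPM in WT PSA-NCAM+ cells. They were highest in WT neurons, at 1874 to 2165 CPM. The neuronal sum was lower in WT NPCs and WT PSA-NCAM+ cells than in WT ESCs. Marker levels differed between genotypes. In slow/slow NPCs the pluripotency sum was 1235 to 1363 CPM against 2208 to 2259 CPM in WT, with 6 of 7 genes lower, and the neuronal sum was 244 to 284 CPM against 90.9 to 98.8 CPM, with 6 of 7 higher. In PSA-NCAM+ cells the pluripotency sum was 728 to 754 CPM against 1384 to 1903 CPM, with 5 of 7 lower, the progenitor sum was 1500 to 1737 CPM against 708 to 922 CPM, with all 6 genes higher, and the neuronal sum was 227 to 526 CPM against 71.2 to 100.3 CPM, with all 7 higher. In slow/slow neurons the neuronal sum was 2794 to 2969 CPM, with 5 of 7 lower, all 5 mesenchymal genes were higher (567 to 603 CPM against 216 to 271 CPM) and 4 of 6 cell cycle genes were higher (523 to 565 CPM against 313 to 399 CPM). The astrocyte sum there was 135 to 159 CPM against 235 to 251 CPM in WT, with 3 of 5 tested genes lower and 1 higher, and the oligodendrocyte sum 20.5 to 24.3 CPM against 64.8 to 84.5 CPM, with 2 of 5 lower and 2 higher. Of the progenitor genes 4 of 6 were higher (2240 to 2558 CPM against 1874 to 2165 CPM), and of the pluripotency genes 4 of 7 were higher and 2 lower (80.9 to 83.9 CPM against 101.8 to 132.4 CPM). Of the endoderm genes in slow/slow neurons, 4 of 5 were higher and 1 lower (41.3 to 58.3 CPM against 48.7 to 56.5 CPM). No gene of these marker lists was at 0 in all libraries of a differentiated group. In bulk RNA, fewer cells of a type and less RNA per cell cannot be told apart, and the part of these differences in the changes given for NPCs, PSA-NCAM+ cells and neurons was not tested.

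Members were changed between genotypes at every stage, mostly by less than 2-fold. In ESCs, 16 of the 45 rose in slow/slow cells and 4 fell (edgeR quasi-likelihood test, FDR below 0.05 over 16627 genes), where 18.5% of all genes rose and 21.9% fell. In NPCs 24 rose and 9 fell, against 29.3% and 27.4% of all genes. In PSA-NCAM+ cells 15 rose and 9 fell, against 28.6% and 28.1% of all genes. In neurons the order of the directions changed, with 8 members higher and 12 lower, against 23.4% and 28.4% of all genes. The median log2 change of the members was 0.12, 0.28, 0.12 and −0.09 at the 4 stages in order of differentiation, beside −0.02, 0.01, −0.01 and −0.06 for all genes. The median size of the change, regardless of sign, was smaller in the members than in all genes (0.18, 0.39, 0.30 and 0.23 against 0.37, 0.49, 0.48 and 0.44). In these comparisons the members were not matched with genes of similar level. A change over 2-fold was measured for 2 members at 1 stage each, Top1 in NPCs and Tcea3 in neurons.

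The counts in PSA-NCAM+ cells and neurons depended on the fit. Fitting the 6 PSA-NCAM+ libraries alone left 8 members changed, namely Larp7, Nudt21, Top1 and 1 PAF subunit, Ctr9, together with Cdk9, Cpsf6, Gtf2f1 and Supt4a, where 11.3% of 15660 genes tested rose and 12.0% fell. With the replicate number as a block in that fit, since same-numbered libraries deviated together at this stage, 17 members were changed, 10 higher and 7 lower, beside 19.6% and 21.7% of all genes. That paired fit was chosen after seeing the data. It did not call Nelfa, Aff1, Supt6, Iws1, Rtf1, Tcea3 or Cpsf2 (FDR = 0.0658 to 0.139). Leaving out slow/slow replicate 1 from the joint fit gave 22 members higher and 9 lower, beside 34.4% and 34.6% of all genes. Leaving out WT replicate 1 gave 15 higher and 9 lower, beside 27.1% and 24.6% of all genes. Each of these settings keeps the same-numbered library of the other genotype, also where changes of single members are given below without slow/slow replicate 1. Fitting the neuron libraries alone gave 17 higher and 19 lower, beside 38.6% and 37.7% of all genes. Upper-quartile scaling moved the median of all genes in neurons from −0.06 to 0.08 and left 13 members higher and 4 lower, beside 30.4% and 21.0% of all genes, those 4 being Tcea3, Ell3, Cdk12 and Supt6. In PSA-NCAM+ cells that scaling gave 11 higher and 10 lower, beside 24.9% and 31.2% of all genes. Of the 12 falls in neurons, those 4 kept their call under both scalings and the other 8 did not.

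**Figure D1:**
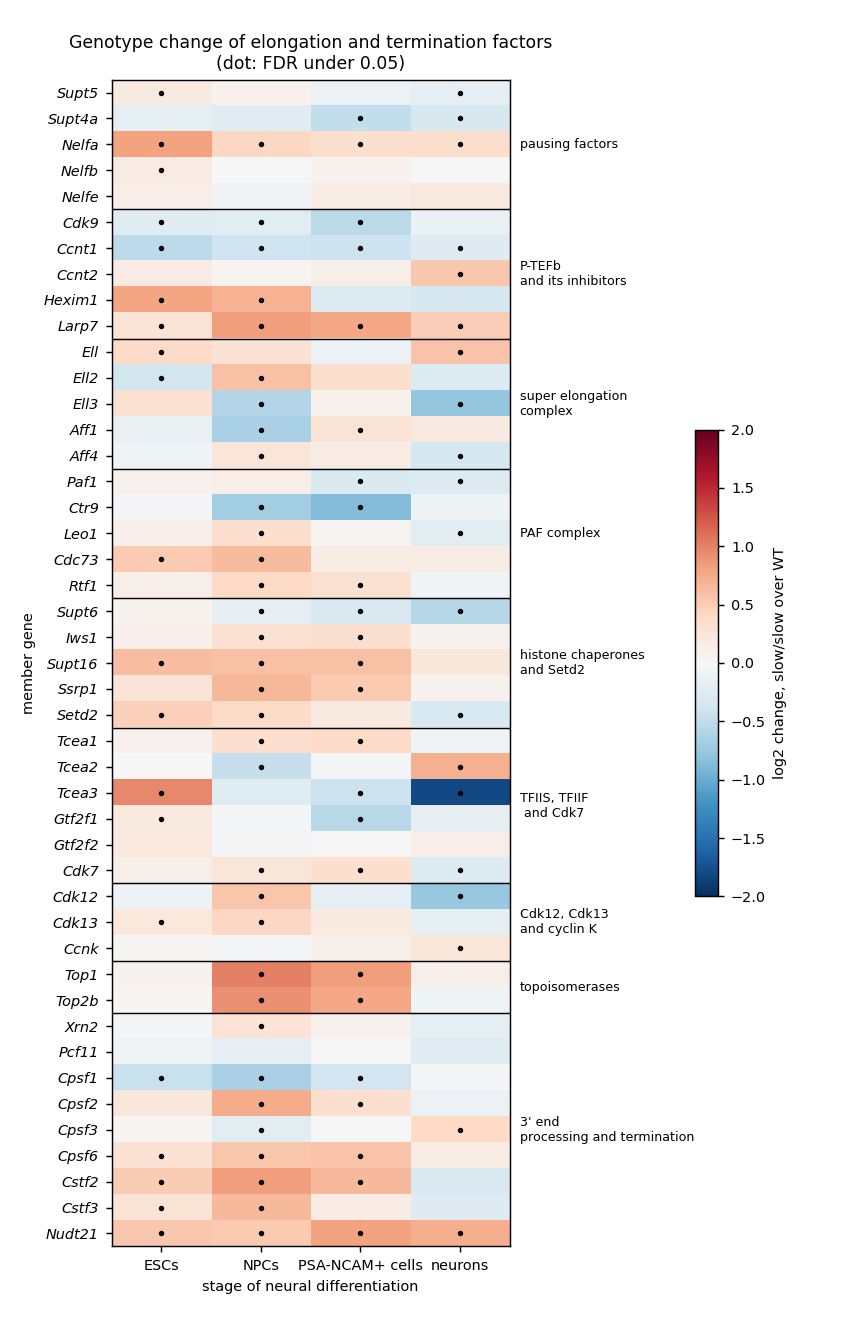
Heat map of the log2 change between slow/slow and WT cells for the 45 members (rows, ordered by role) at the 4 stages (columns), with the colour scale in log2 units and a dot where FDR was below 0.05. Higher levels in slow/slow cells prevail in the NPC column, where 24 members rose and 9 fell, and the largest single change is the fall of Tcea3 in neurons by 1.80 on the log2 scale.

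Across the 4 stages, 3 members rose at every stage, namely Nelfa, Larp7 and Nudt21, and 1 fell at every stage, Ccnt1. These were 6.67% and 2.22% of the members, beside 3.49% and 3.38% of all genes. Limits of these calls are given below. Less the median change of its chromosome, Ccnt1 kept no call and Nudt21 none in ESCs and NPCs. The call of Nelfa in PSA-NCAM+ cells was lost in several settings, and that of Larp7 in ESCs without some single libraries. A change in both directions, depending on the stage, was found for 12 members (26.7%, beside 24.9% of all genes). No stage gave a call for Nelfe, Gtf2f2 or Pcf11.

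DSIF and NELF, the pausing factors, include Nelfa, which rose at every stage. Nelfa, the subunit that links NELF to RNAPII (chromosome 5, 33897916 to 33936413 of GRCm38, minus strand), was counted at 91.5, 93.1 and 101 CPM in WT ESCs and at 172, 166 and 164 CPM in slow/slow ESCs. All 3 slow/slow ESC libraries were higher, with a log2 change of 0.81 ± 0.11 (FDR = 5.39e-06). In NPCs the levels of Nelfa were 76.5, 83.4 and 79.7 CPM in WT and 103, 110 and 106 CPM in slow/slow cells (0.41 ± 0.11, FDR = 0.00298), and in neurons 47.7, 51.3 and 50.7 CPM and 60.6, 66.9 and 62.7 CPM (0.34 ± 0.11, FDR = 0.0109), again without overlap. In PSA-NCAM+ cells the Nelfa libraries overlapped, at 54.1, 67.9 and 65.4 CPM in WT and 60.0, 82.2 and 90.4 CPM in slow/slow cells (0.31 ± 0.11, FDR = 0.0175). That call was lost without WT replicate 1 (FDR = 0.102) or slow/slow replicate 3 (FDR = 0.0829), with upper-quartile scaling (FDR = 0.0572) and in the fit of PSA-NCAM+ libraries alone (FDR = 0.284, or 0.0668 with the block), and the change was 0.49 without slow/slow replicate 1. The other NELF subunits moved less. Nelfb rose in ESCs by 0.16 ± 0.06 (FDR = 0.0498), a call lost without the low-count filter, with the replicate block and without WT replicate 1 or 2 or slow/slow replicate 2 or 3 (FDR = 0.0667 to 0.142), and Nelfe had changes between −0.06 and 0.20 with no call.

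Supt5, the large DSIF subunit that clamps RNAPII onto the template, rose in ESCs by 0.18 ± 0.06 (FDR = 0.0173) and fell in neurons by 0.17 ± 0.06 (FDR = 0.0155). In neurons it was counted at 242, 238 and 244 CPM in WT and 211, 219 and 212 CPM in slow/slow cells. Supt4a, its small partner, fell in PSA-NCAM+ cells by 0.50 ± 0.11 (FDR = 0.000509), from 55.8, 66.1 and 59.5 CPM to 41.4, 42.0 and 44.9 CPM, and in neurons by 0.33 ± 0.11 (FDR = 0.0147). No slow/slow library reached a WT library in either stage. Supt4a shares 49.7% of its transcript with the copy Supt4b at 99.1% identity, so its counts could not be assigned with certainty.

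Supt5 was also the member whose splicing differed most often. The splicing tables gave the percent spliced in (PSI, the share of transcripts that include an exon) for 164 exons and the percent retained for 630 introns in 44 of the member genes. An exon was called changed where the mean PSI differed by more than 10 points with a posterior probability over 0.95. By that rule 0 of 120 member exons tested were changed in ESCs, 2 of 122 in NPCs, 1 of 128 at the PSA-NCAM+ stage and 3 of 117 in neurons, against 0.809%, 2.93%, 0.966% and 3.55% of all exons tested. With limma on the read counts (adjusted p under 0.05 and a difference over 10 points), no member exon in ESCs passed, beside 65 of all 20151 exons. No member intron was called in any stage, of 561, 573, 560 and 540 tested, against 0.0541%, 0.321%, 0.0826% and 0.26% of all introns. With limma as well 0 member introns passed at any stage, beside 6, 247, 0 and 310 of all introns.

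The Supt5 event is a microexon of 12 bases (chr7:29115037-29115048 in mm9, the build of the splicing tables). It is shown because the same 12 bases, whose length keeps the reading frame, were skipped more in slow/slow than in WT cells at some stages and less at another. By its length and its distances to the neighbouring exons it was matched to a coding exon of GENCODE vM21, the fifth of 30 exons, at chr7:28330018-28330029 of GRCm38 on the minus strand. Capitals mark the exon within 9 transcript bases on either side, and the sequence was read from the reference, 5′ to 3′.
Supt5 microexon: tggagaaagAAGAGATTGAAGcctccaata

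In ESCs the microexon had a PSI of 90.01, 91.6 and 91.1 in WT and 93.1, 91.9 and 93.4 in slow/slow cells. In NPCs it was 62.3, 62.5 and 67.4 in WT and 50.6, 48.8 and 52.4 in slow/slow cells, a difference of −13.4 points. In PSA-NCAM+ cells it was 83.9, 82.4 and 84.5 in WT and 71.0, 62.8 and 64.4 in slow/slow cells, a difference of −17.6 points. All slow/slow libraries thus skipped the exon more than all WT libraries at both intermediate stages. In neurons the order was reversed, with 76.6, 82.4 and 81.4 in WT and 96.6, 96.9 and 98.0 in slow/slow cells, a difference of 17.04 points. Each value rested on at least 235 reads per sample, but the filter on balance between exon junctions was not applied to microexons. The genotype difference was 30.5 points higher in neurons than in NPCs and 34.6 points higher than in PSA-NCAM+ cells, and lower in NPCs and in PSA-NCAM+ cells than in ESCs by 15.4 and 19.5 points. These gaps are given as a description, since the exon was described for its differences within stages. With limma the Supt5 exon had FDR = 0.0127 in NPCs, 0.0932 at the PSA-NCAM+ stage and 0.0021 in neurons, and with the replicate number as a block 0.0125 in PSA-NCAM+ cells.

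**Figure D2:**
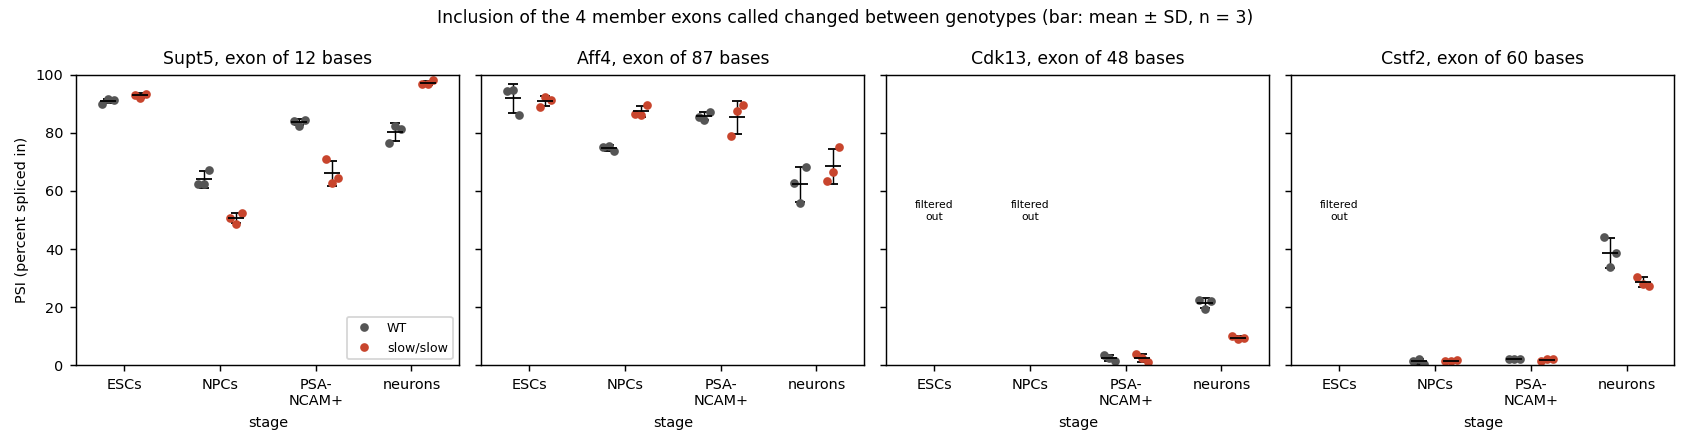
PSI in percent of the 4 member exons called changed, in Supt5, Aff4, Cdk13 and Cstf2, with 1 point per library at each stage, the genotypes in separate colours and bars for the mean ± SD (n = 3); stages where an event failed the coverage filters are marked as filtered out. The Supt5 points of slow/slow cells lie at 48.8 to 52.4 below those of WT in NPCs and at 96.6 to 98.0 above them in neurons.

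Among P-TEFb and its inhibitors, Cdk9 and Ccnt1 were lower and Hexim1 and Larp7 higher in ESCs and NPCs, while Ccnt2 was not called there. The falls there have limits given below: that of Ccnt1 was shared by its chromosome, and that of Cdk9 was lost without some single libraries. Ccnt1, which encodes cyclin T1, fell at all 4 stages. Its ESC levels were 180, 173 and 152 CPM in WT and 125, 112 and 116 CPM in slow/slow ESCs (a log2 change of −0.52 ± 0.10, FDR = 0.000241), and 122, 126 and 120 CPM against 94.1, 92.4 and 92.9 CPM in NPCs (−0.39 ± 0.10, FDR = 0.00178). In PSA-NCAM+ cells Ccnt1 was at 154, 121 and 112 CPM in WT and 93.9, 109 and 86.9 CPM in slow/slow cells (−0.42 ± 0.10, FDR = 0.00106), and in neurons at 105, 102.04 and 104 CPM against 87.9, 87.8 and 84.6 CPM (−0.25 ± 0.10, FDR = 0.0327). The groups did not overlap at any stage, but the call in neurons was lost when any 1 of the 6 neuron libraries was left out (FDR = 0.0512 to 0.0742) and with upper-quartile scaling (FDR = 0.328), and that in PSA-NCAM+ cells in the fit of its own 6 libraries (FDR = 0.0912), though not with the block (FDR = 0.0402).

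Up to the PSA-NCAM+ stage the fall of Ccnt1 was shared by its chromosome. Ccnt1 and Cpsf1 lie on chromosome 15, where the median log2 change of 639 genes was −0.60, −0.57, −0.56 and −0.08 from ESCs to neurons, with 8.9%, 19.4%, 18.3% and 45.7% of its genes above 0. Nudt21 and Ell lie on chromosome 8, where the median of 865 genes was 0.45, 0.49, 0.46 and 0.44, with 73.5%, 71.6%, 71.8% and 78.2% of genes above 0. The other 18 chromosomes had medians between −0.14 and 0.15. With the median of its chromosome subtracted, Ccnt1 had changes of 0.08, 0.18, 0.14 and −0.17 (FDR = 0.544, 0.127, 0.212 and 0.142), so that no call was left and the sign turned at 3 stages. The number of copies of these chromosomes was not tested here. The paper reports the same total of chromosomes in WT and slow/slow ESCs by karyotyping, and does not give the copies of each chromosome. With the medians of all chromosomes subtracted, the split of members higher and lower was 12 and 2 in ESCs, 23 and 6 in NPCs, 16 and 8 for PSA-NCAM+ cells, and 9 and 7 for neurons. Of all genes, 18.0% and 19.8%, 28.0% and 26.99%, 27.7% and 27.2%, and 25.3% and 24.7% were then higher and lower.

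**Figure D3:**
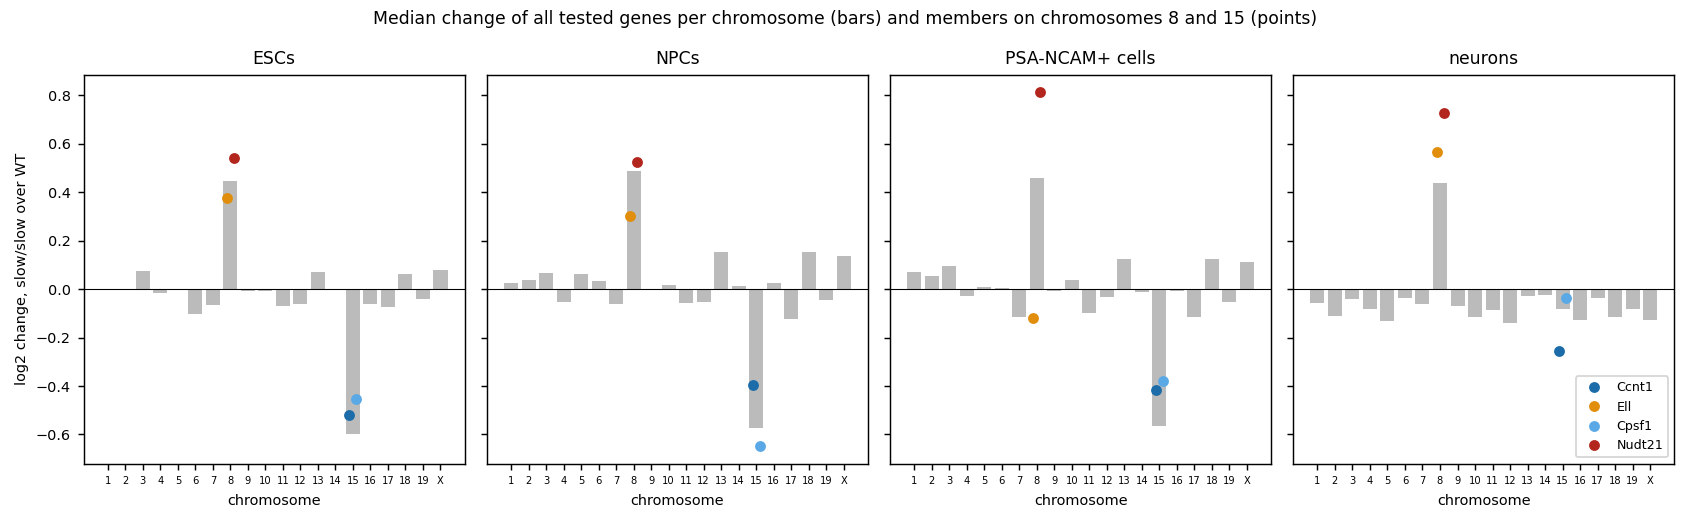
Median log2 change between slow/slow and WT cells of the genes of each chromosome (bars, from 0) at each of the 4 stages, with points for the members Ccnt1 and Cpsf1 on chromosome 15 and Ell and Nudt21 on chromosome 8. The bar of chromosome 15 lies at −0.60 in ESCs and −0.08 in neurons, and that of chromosome 8 between 0.44 and 0.49 at all stages.

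Cdk9, the kinase of P-TEFb, lies on chromosome 2 and fell in 3 stages, by 0.24 ± 0.08 in ESCs (FDR = 0.0182), by 0.23 ± 0.08 at the NPC stage (FDR = 0.0189) and by 0.54 ± 0.08 at the PSA-NCAM+ stage (FDR = 8.3e-06). The last of these took it from 91.3, 98.0 and 105 CPM to 71.8, 58.0 and 71.8 CPM, without overlap. The call in ESCs was lost without WT replicate 3 or slow/slow replicate 1 or 3 (FDR = 0.0667 to 0.159), and that in NPCs without any library but WT replicate 3 (FDR = 0.0503 to 0.0646). In neurons Cdk9 had a change of −0.13 ± 0.08 (FDR = 0.189). Ccnt2, the alternative cyclin of the kinase, rose in neurons, from 83.1, 83.2 and 81.9 CPM to 125, 120 and 114 CPM (0.53 ± 0.08, FDR = 8.18e-06), and its change there differed from that in ESCs by 0.38 ± 0.11 (FDR = 0.0079).

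Hexim1, which inhibits P-TEFb within the 7SK particle, was at 86.6, 90.9 and 92.2 CPM in WT ESCs and at 151, 166 and 150 CPM in slow/slow ESCs. The 3 slow/slow values were all higher, and the log2 change was 0.79 ± 0.16 (FDR = 0.000392). A rise of 0.69 ± 0.16 was found in NPCs (FDR = 0.000862), from 48.7, 43.9 and 39.5 CPM to 77.7, 63.8 and 72.3 CPM. At the later stages Hexim1 was not called, with changes of −0.28 ± 0.15 in PSA-NCAM+ cells and −0.32 ± 0.16 in neurons (FDR = 0.131 and 0.0864). Those changes were lower than the change in ESCs by 1.07 and 1.12 (FDR = 0.001 and 0.00039).

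Larp7, which binds and stabilises the 7SK RNA, rose at all stages and most in NPCs. Its levels were 51.2, 53.8 and 48.9 CPM in WT and 61.2, 59.5 and 65.0 CPM in slow/slow ESCs (0.27 ± 0.09, FDR = 0.0212), and 32.5, 30.6 and 30.5 CPM against 55.4, 59.1 and 53.1 CPM in NPCs (0.84 ± 0.09, FDR = 2.79e-07). In PSA-NCAM+ cells Larp7 was at 31.5, 36.8 and 34.3 CPM against 50.2, 66.4 and 59.0 CPM (0.78 ± 0.09, FDR = 6.27e-07), and in neurons at 22.3, 24.01 and 24.2 CPM against 36.01, 32.9 and 30.5 CPM (0.50 ± 0.09, FDR = 0.000133). The groups did not overlap at any stage. The call in ESCs was lost without WT replicate 3 (FDR = 0.0635) or slow/slow replicate 3 (FDR = 0.0666), and the Larp7 transcript matches in part the copy Gm12666 at 98.4% identity.

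**Figure D4:**
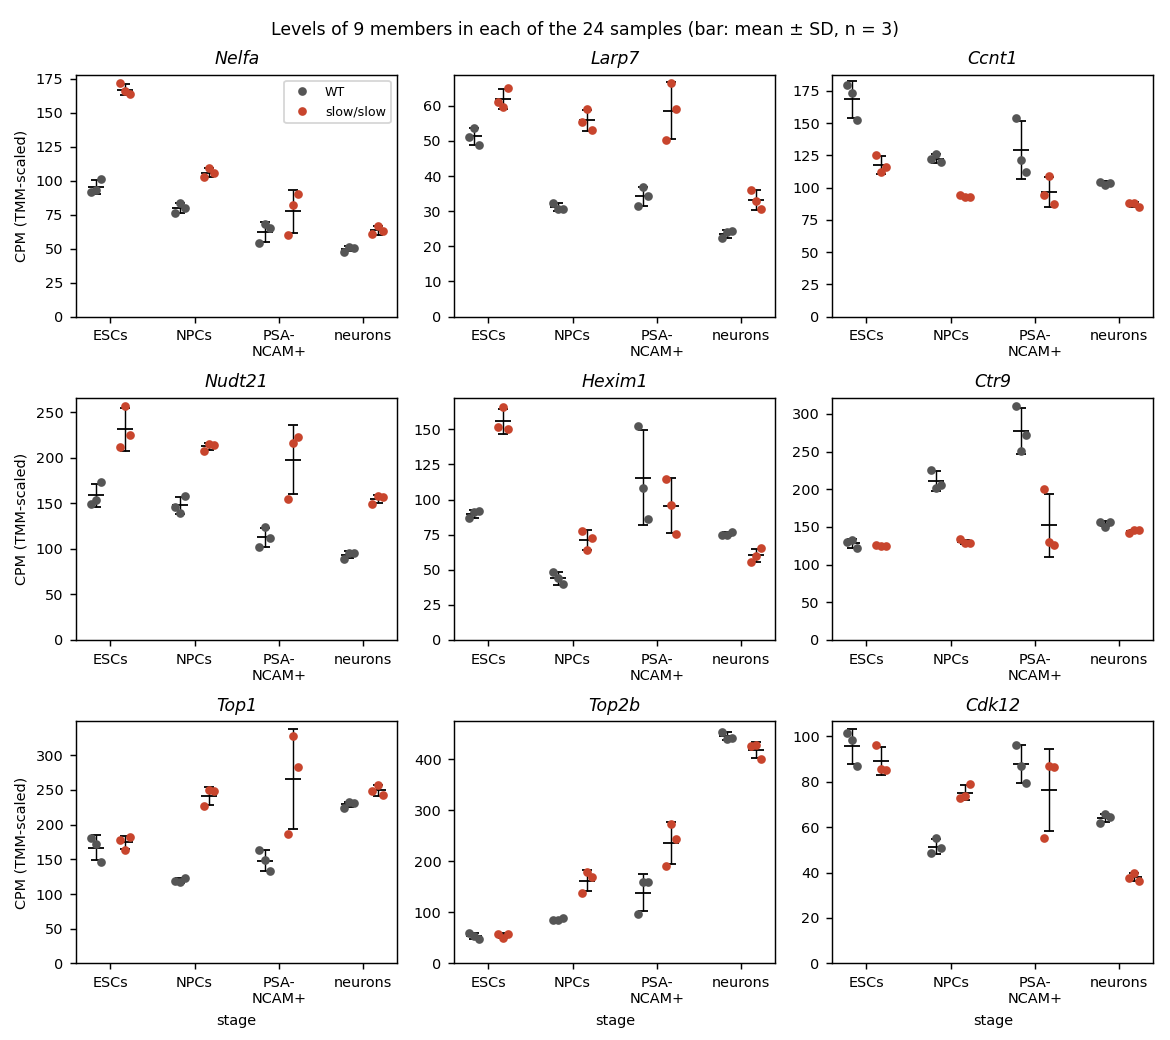
Expression in CPM (each panel with its own axis) of Nelfa, Larp7, Ccnt1, Nudt21, Hexim1, Ctr9, Top1, Top2b and Cdk12, with 1 point per library, bars for the mean ± SD (n = 3) and the 2 genotypes side by side at each stage. Larp7 and Nudt21 of slow/slow cells lie above WT at each of the 4 stages and Ccnt1 below, while the Ctr9 points separate in NPCs and PSA-NCAM+ cells, where slow/slow libraries had 127 to 200 CPM and WT libraries 201 to 311 CPM.

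The super elongation complex, a form of P-TEFb with Ell and Aff proteins that serves rapidly induced genes, had no member that moved one way throughout. Ell, which raises the catalytic rate of RNAPII, rose in ESCs by 0.38 ± 0.13 (FDR = 0.0297) and in neurons by 0.57 ± 0.13 (FDR = 0.00139), the latter from 31.1, 31.3 and 31.7 CPM to 47.1, 48.8 and 43.4 CPM. The call in ESCs was lost without WT replicate 1 or 2 or slow/slow replicate 1 (FDR = 0.071 to 0.0819). Less the median of chromosome 8, Ell had changes of −0.07 in ESCs and 0.13 in neurons, neither of them called, and −0.57 in PSA-NCAM+ cells (FDR = 0.00116). Ell2, its relative, fell in ESCs by 0.37 ± 0.14 (FDR = 0.0406) and rose in NPCs by 0.58 ± 0.14 (FDR = 0.00154), from 32.1, 28.2 and 29.4 CPM to 42.1, 49.8 and 42.7 CPM. Ell2 thus turned its direction between these stages, and its changes differed by 0.96 ± 0.20 (FDR = 0.0015), but the call in ESCs was lost without any library but WT replicate 3 (FDR = 0.0734 to 0.155).

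Ell3, the lowest of the Ell genes in the authors' mean RPKM, was at 3.87, 4.40 and 3.89 CPM in WT neurons and 2.31, 2.37 and 2.41 CPM in slow/slow neurons. All slow/slow values were lower, by 0.78 ± 0.16 on the log2 scale (FDR = 0.000365). Ell3 also fell in NPCs by 0.58 ± 0.15 (FDR = 0.0027), from 16.04, 15.8 and 17.8 CPM to 12.0, 11.2 and 9.93 CPM. It shares 1436 of its 2190 exonic bases with Serinc4 on the same strand, so reads of these genes could not be told apart.

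Aff1 and Aff4 are the scaffolds of the complex. Aff1 fell in NPCs by 0.65 ± 0.10 (FDR = 2.55e-05), from 127, 148 and 136 CPM to 93.2, 84.4 and 85.0 CPM, and rose in PSA-NCAM+ cells by 0.27 ± 0.10 (FDR = 0.0304). The rise was lost in the fit of PSA-NCAM+ libraries alone, with or without the block, and without WT replicate 3 or slow/slow replicate 2 (FDR = 0.07 to 0.136). Aff4 fell in neurons by 0.36 ± 0.10 (FDR = 0.00617), from 458, 436 and 447 CPM to 355, 359 and 332 CPM, a call lost with upper-quartile scaling, and in NPCs it had a change of 0.24 ± 0.10 (FDR = 0.0483) that was lost without any 1 of the 6 libraries (FDR = 0.0507 to 0.118).

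Aff4 also carried a changed exon of 87 bases (chr11:53194088-53194174 in mm9). It is shown because it is the only member exon apart from that of Supt5 called in NPCs. It was matched to the coding exon at chr11:53380586-53380672 of GRCm38, plus strand, the fifth of 21 exons in GENCODE vM21, with the exon in capitals.
Aff4 exon: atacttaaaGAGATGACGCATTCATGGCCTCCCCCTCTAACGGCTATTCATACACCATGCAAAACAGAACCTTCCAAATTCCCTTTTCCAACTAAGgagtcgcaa
In NPCs the PSI of this exon was 75.1, 75.4 and 73.6 in WT and 86.6, 85.9 and 89.5 in slow/slow cells. The slow/slow libraries were all higher, by 12.6 points (limma FDR = 0.0065). In ESCs, PSA-NCAM+ cells and neurons the genotypes overlapped, with differences of −0.96, −0.41 and 6.13 points. Whether the NPC difference exceeded those of the other stages could not be shown, since the smallest adjusted p was 0.08 (two-sided exact permutation test of genotype labels within stages, without the pairing, 12 tests on member exons called at some stage).

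The PAF complex travels with elongating RNAPII and couples it to histone modification, and its 5 subunits did not move together. Ctr9, its scaffold subunit (chromosome 7, 111028951 to 111056377 of GRCm38), had 311, 251 and 271 CPM in WT PSA-NCAM+ cells and 200, 130 and 127 CPM in slow/slow PSA-NCAM+ cells. All 3 slow/slow values were below all WT values, with slow/slow replicate 1 the nearest to WT. The fall was 0.87 ± 0.12 on the log2 scale (FDR = 4.24e-06), and the log2 change without slow/slow replicate 1 was −1.09. In NPCs Ctr9 went from 226, 201 and 205 CPM to 133, 129 and 129 CPM (−0.69 ± 0.12, FDR = 6.26e-05). In ESCs and neurons Ctr9 was not called, at −0.04 ± 0.12 (FDR = 0.841) and −0.09 ± 0.12 (FDR = 0.524). The change was lower than that of ESCs by 0.66 ± 0.17 in NPCs (FDR = 0.0072) and by 0.83 ± 0.17 in PSA-NCAM+ cells (FDR = 0.00087).

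Cdc73, the subunit known as parafibromin, moved the other way in NPCs, from 66.0, 60.1 and 60.0 CPM to 93.1, 96.2 and 98.2 CPM (0.63 ± 0.10, FDR = 1.73e-05), and rose in ESCs by 0.52 ± 0.10 (FDR = 0.000203). Rtf1, which recruits the machinery of histone H2B ubiquitylation, rose in NPCs by 0.40 ± 0.08 (FDR = 0.000214) and in PSA-NCAM+ cells by 0.30 ± 0.08 (FDR = 0.00304). In PSA-NCAM+ cells its libraries overlapped, at 78.2 to 84.3 CPM in WT and 82.4 to 110.8 CPM in slow/slow cells. That call was lost in the fit of the stage alone, with or without the block. Leo1 rose in NPCs by 0.33 ± 0.09 (FDR = 0.00339). In NPCs, therefore, 3 subunits were higher, Ctr9 was lower and Paf1 was not called (0.14 ± 0.07, FDR = 0.0915). Paf1, after which the complex is named, fell in PSA-NCAM+ cells by 0.29 ± 0.07 (FDR = 0.00131) and in neurons by 0.27 ± 0.07 (FDR = 0.00259), and Leo1 fell in neurons by 0.23 ± 0.09 (FDR = 0.0341). The falls of Paf1 and Leo1 in neurons were lost with upper-quartile scaling, and that of Leo1 without WT replicate 1 or 3 or slow/slow replicate 1 or 2 (FDR = 0.0548 to 0.107).

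The histone chaperones, which take nucleosomes apart before RNAPII and restore them behind it, included genes that moved in either direction. Of the 4 measured, Supt16 rose in ESCs, and Supt16, Ssrp1 and Iws1 rose and Supt6 fell in NPCs and at the PSA-NCAM+ stage. Supt16, the large subunit of the chaperone FACT, was at 320, 323 and 273 CPM in WT ESCs and 482, 436 and 482 CPM in slow/slow ESCs (0.61 ± 0.16, FDR = 0.00489), without overlap. Supt16 rose by 0.58 ± 0.16 in NPCs (FDR = 0.00482) and by 0.58 ± 0.16 in PSA-NCAM+ cells (FDR = 0.00455), where the libraries overlapped at 188, 301 and 272 CPM in WT and 257, 464 and 420 CPM in slow/slow cells. Ssrp1, the other FACT subunit, rose in NPCs by 0.66 ± 0.13 (FDR = 0.000218), from 326, 306 and 302 CPM to 497, 487 and 487 CPM, and in PSA-NCAM+ cells by 0.52 ± 0.13 (FDR = 0.00172), with overlap. Both FACT subunits were higher in slow/slow cells in all 3 same-numbered PSA-NCAM+ pairs. Their calls were lost in the unpaired fit of that stage alone but not in its paired form (FDR = 0.00782 for Supt16 and 0.013 for Ssrp1), and neither was called in neurons (0.23 ± 0.16 for Supt16 and 0.08 ± 0.13 for Ssrp1). Supt16 overlaps Rpgrip1 on the opposite strand over 1057 exonic bases, and the sources used here do not give the strand setting of the counting.

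Supt6, the chaperone that binds the CTD linker of RNAPII, moved against FACT. It fell in NPCs by 0.19 ± 0.08 (FDR = 0.0447), in PSA-NCAM+ cells by 0.31 ± 0.08 (FDR = 0.00237) and in neurons by 0.57 ± 0.08 (FDR = 5.52e-06), the last from 231, 222 and 230 CPM to 154, 156 and 148 CPM. Its fall in neurons exceeded the change in ESCs by 0.64 ± 0.11 on the log2 scale (FDR = 0.00012). The call in NPCs was lost without the low-count filter, with the replicate block and without any library but slow/slow replicate 1 (FDR = 0.075 to 0.152). Iws1, the partner of Supt6, had changes of 0.30 ± 0.12 in NPCs (FDR = 0.034) and 0.32 ± 0.12 in PSA-NCAM+ cells (FDR = 0.0249), where libraries overlapped. The first was lost without WT replicate 1 or 2 or slow/slow replicate 2 or 3 (FDR = 0.0602 to 0.102), and the second without WT replicate 2 or 3 or slow/slow replicate 2 (FDR = 0.0502 to 0.158). Setd2, which trimethylates histone H3 at lysine 36 in transcribed genes, rose in ESCs by 0.48 ± 0.10 (FDR = 0.000774), from 120, 119 and 95.3 CPM to 168, 140 and 157 CPM, and in NPCs by 0.38 ± 0.10 (FDR = 0.00346). In neurons Setd2 fell by 0.30 ± 0.10 (FDR = 0.0165), from 202, 195 and 198 CPM to 170, 161 and 150 CPM, so its direction turned between stages, although the fall was lost with upper-quartile scaling and without slow/slow replicate 3 (FDR = 0.0716).

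TFIIS rescues RNAPII that has backtracked by stimulating cleavage of the transcript, and its 3 genes behaved differently. Tcea3 (chromosome 4, 136247729 to 136274898 of GRCm38) had the largest genotype changes of the list in ESCs and neurons, in opposite directions. It was at 23.8, 27.8 and 29.97 CPM in WT ESCs and 51.1, 57.5 and 50.4 CPM in slow/slow ESCs, with no overlap (0.96 ± 0.16, FDR = 7.31e-05). In neurons, where its level was low, Tcea3 was at 3.28, 5.04 and 4.22 CPM in WT and 1.13, 1.10 and 1.43 CPM in slow/slow cells (−1.80 ± 0.18, FDR = 1.23e-07). In NPCs the change was −0.24 ± 0.16 (FDR = 0.206), with 30.2, 31.6 and 32.1 CPM against 28.3, 26.1 and 25.0 CPM. In PSA-NCAM+ cells Tcea3 fell by 0.44 ± 0.16 (FDR = 0.026), from 11.2, 18.6 and 15.9 CPM to 9.92, 10.98 and 12.7 CPM, with overlap, and that call was lost without WT replicate 2 or 3 or slow/slow replicate 1 or 2 (FDR = 0.082 to 0.214) and in the fit of the stage alone, with or without the block. The change in neurons was lower than in ESCs by 2.76 ± 0.24 (FDR = 3.4e-08), the largest such difference among the members.

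Tcea2 moved opposite to Tcea3 in neurons. It had 6.22, 5.10 and 5.22 CPM in WT and 8.95, 9.02 and 8.96 CPM in slow/slow neurons, all higher (0.70 ± 0.16, FDR = 0.00127), and it fell in NPCs by 0.46 ± 0.16 (FDR = 0.0236), from 8.32, 7.82 and 7.69 CPM to 5.82, 6.32 and 5.22 CPM. The fall in NPCs was lost without WT replicate 1 or 2 or slow/slow replicate 1 or 3 (FDR = 0.0515 to 0.105). Tcea1, the broadly expressed form, rose in NPCs by 0.33 ± 0.10 (FDR = 0.0111) and in PSA-NCAM+ cells by 0.38 ± 0.10 (FDR = 0.00421). The PSA-NCAM+ libraries overlapped, and that call was lost in the unpaired fit of the stage alone. Tcea1 was far more abundant than the other TFIIS genes, with the authors' mean RPKM at 72.7 in WT neurons beside 4.85 for Tcea2 and 3.47 for Tcea3. Near-identical copies make Tcea1 counts uncertain, since Gm15223 matches 29.6% of its transcript at 92.1% identity.

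**Figure D5:**
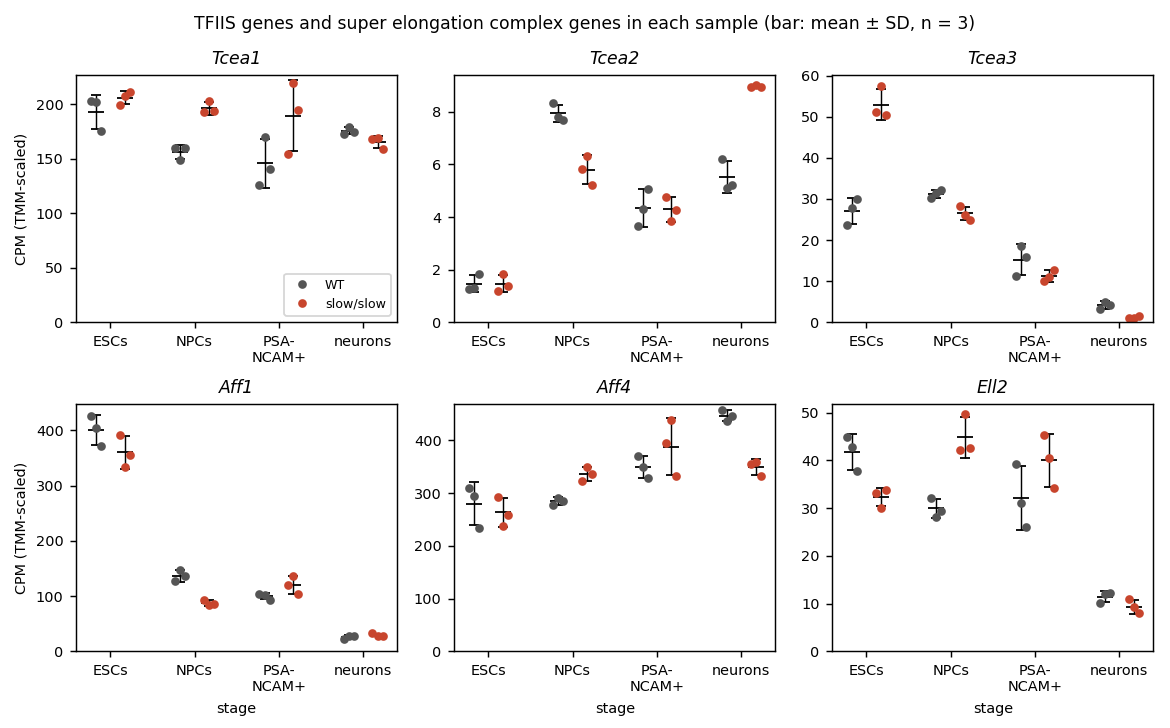
Expression in CPM (each panel with its own axis) of the TFIIS genes Tcea1, Tcea2 and Tcea3 and of Aff1, Aff4 and Ell2 of the super elongation complex, with 1 point per library, bars for the mean ± SD (n = 3) and the 2 genotypes side by side at each stage. Tcea3 of slow/slow cells lies above WT in ESCs (50.4 to 57.5 CPM against 23.8 to 29.97 CPM) and below WT in neurons, and Aff1 drops from 371 to 425 CPM in WT ESCs to 23.1 to 28.0 CPM in WT neurons.

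TFIIF aids initiation and early elongation, and Cdk7 is the CTD kinase of TFIIH. Gtf2f1, the large TFIIF subunit, fell in PSA-NCAM+ cells by 0.55 ± 0.07 (FDR = 3.3e-06), from 104, 89.0 and 89.98 CPM to 59.3, 64.5 and 69.2 CPM, and had a change of 0.19 ± 0.07 in ESCs (FDR = 0.047), lost without the low-count filter, with the replicate block and without WT replicate 1 or 2 or slow/slow replicate 2 (FDR = 0.105 to 0.146). The genotype changes at these stages differed by 0.74 ± 0.10 (FDR = 2.3e-05). Gtf2f2, the small subunit, was not called at any stage, with changes between −0.04 and 0.19. Cdk7 rose in NPCs by 0.25 ± 0.07 (FDR = 0.00738) and in PSA-NCAM+ cells by 0.34 ± 0.07 (FDR = 0.000514), and fell in neurons by 0.28 ± 0.07 (FDR = 0.00354), from 85.8, 88.8 and 89.3 CPM to 77.3, 72.7 and 67.9 CPM. Its fall was lost with upper-quartile scaling, and 52.2% of its transcript matches Gm7496 at 90.9% identity.

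Cdk12 and Cdk13 bind Ccnk (cyclin K) and phosphorylate the CTD during productive elongation. Cdk12 was at 61.9, 65.5 and 64.5 CPM in WT neurons and 37.8, 39.8 and 36.5 CPM in slow/slow neurons, well apart (−0.75 ± 0.12, FDR = 3.82e-05). In NPCs it rose by 0.55 ± 0.12 (FDR = 0.0008), from 48.4, 55.0 and 50.6 CPM to 72.7, 73.7 and 79.0 CPM. Against ESCs, the genotype change of Cdk12 was higher in NPCs by 0.65 ± 0.17 (FDR = 0.0091) and lower in neurons by 0.65 ± 0.17 (FDR = 0.0049). Cdk13 rose in NPCs by 0.41 ± 0.08 (FDR = 0.000289) and in ESCs by 0.22 ± 0.08 (FDR = 0.0403), the latter lost without WT replicate 3 or slow/slow replicate 1 or 3 (FDR = 0.0607 to 0.137). Ccnk rose in neurons by 0.23 ± 0.08 (FDR = 0.0206), lost without WT replicate 1 or slow/slow replicate 2 (FDR = 0.0725 to 0.0779).

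Cdk13 held a changed exon of 48 bases (chr13:17814980-17815027 in mm9), a length divisible by 3. It matched no exon in the annotation used, so whether it is coding and keeps the reading frame is not known. In neurons its PSI was 22.6, 19.3 and 22.1 in WT and 10.0, 9.05 and 9.38 in slow/slow cells, a difference of −11.9 points without overlap (posterior probability 0.997, limma FDR = 0.0037). In PSA-NCAM+ cells the exon was nearly absent in both genotypes, with mean PSI of 2.55 ± 0.90 (SD, n = 3) and 2.50 ± 1.29 (SD, n = 3).

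The topoisomerases relieve the supercoils that a moving polymerase creates, and both rose at the intermediate stages. Top1 (chromosome 2, 160645888 to 160722764 of GRCm38) had 119, 117 and 124 CPM in WT NPCs and 227, 251 and 248 CPM in slow/slow NPCs. This was the largest genotype change of the list in NPCs, 1.01 ± 0.13 (FDR = 3.3e-06). In PSA-NCAM+ cells Top1 was at 163, 149 and 133 CPM against 186, 327 and 283 CPM (0.84 ± 0.13, FDR = 2.38e-05). Slow/slow replicate 1 lay nearest to WT, and the change was 1.07 without it. In ESCs and neurons Top1 was not called, at 0.07 ± 0.13 (FDR = 0.729) and 0.12 ± 0.13 (FDR = 0.463), and its change exceeded that of ESCs by 0.95 ± 0.19 in NPCs (FDR = 0.0011) and by 0.77 ± 0.19 in PSA-NCAM+ cells (FDR = 0.004).

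Top2b, the form of topoisomerase II found in postmitotic cells, followed the same course. It was at 84.9, 84.7 and 89.0 CPM in WT NPCs and 139, 179 and 169 CPM in slow/slow NPCs (0.91 ± 0.15, FDR = 4.04e-05), and at 97.4, 160 and 159 CPM against 192, 274 and 244 CPM in PSA-NCAM+ cells (0.77 ± 0.15, FDR = 0.000221). No libraries overlapped, but the PSA-NCAM+ call was lost in the fit of that stage alone (FDR = 0.0644), though not with the block (FDR = 0.00806). The change was 0.92 without slow/slow replicate 1, but replicate 1 was the lowest PSA-NCAM+ library in both genotypes. In ESCs and neurons the changes were 0.04 ± 0.15 (FDR = 0.861) and −0.09 ± 0.15 (FDR = 0.638). Top2b overlaps Rarb on the opposite strand over 1793 exonic bases.

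Among the 9 factors of 3′ end processing and termination, 6 rose and 2 fell in NPCs, where 29.3% and 27.4% of all genes did. Nudt21, the subunit of cleavage factor I that binds UGUA motifs and steers the choice of poly(A) site, rose at every stage. It was at 149, 154 and 173 CPM in WT and 211, 257 and 225 CPM in slow/slow ESCs (0.54 ± 0.11, FDR = 0.000504), and at 146, 139 and 158 CPM against 208, 215 and 214 CPM in NPCs (0.52 ± 0.11, FDR = 0.000438). In PSA-NCAM+ cells Nudt21 was at 103, 124 and 112 CPM against 154, 216 and 223 CPM (0.81 ± 0.11, FDR = 3.52e-06), and in neurons at 89.1, 96.0 and 95.3 CPM against 149, 158 and 156 CPM (0.72 ± 0.11, FDR = 1.54e-05). All slow/slow libraries exceeded all WT libraries of their stage. Less the median of chromosome 8, the rises were 0.10 in ESCs and 0.04 in NPCs, not called (FDR = 0.525 and 0.797), and 0.36 in PSA-NCAM+ cells and 0.29 in neurons, both called (FDR = 0.0094 and 0.0337). The copy Gm7488 is identical over 13.7% of the Nudt21 transcript.

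Cpsf6, the partner of Nudt21 in cleavage factor I, rose in ESCs by 0.29 ± 0.08 (FDR = 0.00716), in NPCs by 0.56 ± 0.08 (FDR = 1.18e-05) and in PSA-NCAM+ cells by 0.57 ± 0.08 (FDR = 7.9e-06). In NPCs Cpsf6 went from 164, 150 and 149 CPM to 212, 244 and 223 CPM, without overlap. Cstf2, the cleavage stimulation factor subunit that binds downstream of the poly(A) site, had 64.1, 63.0 and 58.4 CPM in WT NPCs and 110, 111 and 111 CPM in slow/slow NPCs (0.84 ± 0.13, FDR = 3.19e-05). Cstf2 rose too in ESCs by 0.51 ± 0.13 (FDR = 0.00466) and in PSA-NCAM+ cells by 0.65 ± 0.13 (FDR = 0.000379). The PSA-NCAM+ libraries overlapped, at 56.6 to 72.5 CPM in WT and 70.2 to 124.7 CPM in slow/slow cells, and that call was lost in the unpaired fit of the stage alone. In neurons the change of Cstf2 was −0.31 ± 0.13 (FDR = 0.0569), lower than that of ESCs by 0.82 ± 0.19 (FDR = 0.0016). Cstf3, the scaffold of that factor, rose in NPCs by 0.65 ± 0.11 (FDR = 3.95e-05) and in ESCs had a change of 0.27 ± 0.11 (FDR = 0.0494) that was lost without any 1 of the 6 libraries (FDR = 0.0502 to 0.122).

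The cleavage and polyadenylation specificity factor recognises the poly(A) signal and cuts the transcript, and its subunits differed. Cpsf2 was at 77.9, 72.9 and 75.7 CPM in WT NPCs and 125, 130 and 123 CPM in slow/slow NPCs (0.74 ± 0.13, FDR = 7.79e-05). Cpsf3, the endonuclease, fell in NPCs by 0.23 ± 0.05 (FDR = 0.000954) and rose in neurons by 0.40 ± 0.05 (FDR = 2.77e-06), from 66.4, 65.9 and 66.2 CPM to 88.8, 86.4 and 85.9 CPM. Cpsf3 therefore changed in the direction opposite to that of Cpsf2 in NPCs. Cpsf1, the largest subunit, fell in ESCs by 0.45 ± 0.08 (FDR = 0.000138), in NPCs by 0.65 ± 0.08 (FDR = 1.45e-06) and in PSA-NCAM+ cells by 0.38 ± 0.08 (FDR = 0.000477), but less the median of chromosome 15 its changes were 0.15, −0.08 and 0.19, none of them called. Xrn2, the exonuclease that follows the polymerase after cleavage, rose in NPCs by 0.28 ± 0.09 (FDR = 0.0143), and Pcf11, which binds the CTD and promotes termination, had changes between −0.24 and 0.01 with no call.

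Cstf2 held a changed exon of 60 bases (chrX:130606954-130607013 in mm9). It is shown because the level of Cstf2 also changed at the 3 earlier stages, and its difference was the smallest of those called. It was matched to the coding exon at chrX:134072415-134072474 of GRCm38, plus strand, the third of 5 exons of 1 transcript in GENCODE vM21, with the exon in capitals.
Cstf2 exon: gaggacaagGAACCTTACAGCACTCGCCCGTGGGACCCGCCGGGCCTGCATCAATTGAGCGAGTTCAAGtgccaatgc
In neurons its PSI was 44.0, 33.7 and 38.6 in WT and 30.5, 28.0 and 27.4 in slow/slow cells, a difference of −10.2 points (posterior probability 0.958). In NPCs the exon was rare, at 1.36 ± 0.82 (SD, n = 3) in WT and 1.59 ± 0.15 (SD, n = 3) in slow/slow cells. The neuron call was lost without WT replicate 1 or 3 or slow/slow replicate 2 or 3, and with limma (FDR = 0.0769, or 0.017 with the replicate block).

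In WT cells more members fell than rose after differentiation. Against WT ESCs, 5 members rose and 23 fell in NPCs (34.0% and 31.6% of all genes), 9 rose and 21 fell in PSA-NCAM+ cells (37.6% and 33.6%), and 10 rose and 26 fell in neurons (43.4% and 39.4%). These comparisons share the WT ESC samples. The median log2 change of the members in neurons was −0.50, beside 0.08 for all genes, and upper-quartile scaling moved the median of all genes to −0.11 and the members to 5 higher and 33 lower, beside 39.3% and 44.0% of all genes. By role, 4 of the 5 pausing factors, 4 of the 5 P-TEFb genes, 4 of the 5 genes of the super elongation complex and 6 of the 9 termination factors fell in neurons, whereas both topoisomerases rose.

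Aff1 had the largest change of the WT course, from 425, 405 and 371 CPM in ESCs to 23.1, 28.0 and 28.0 CPM in neurons (−3.92 ± 0.11, FDR = 2.98e-17). Top2b rose from 59.0, 53.9 and 47.7 CPM to 454, 440 and 441 CPM (3.06 ± 0.16, FDR = 3.16e-13). In the authors' mean RPKM, which accounts for length, Top2b went from rank 42 of the 45 members in WT ESCs (8.82 RPKM) to rank 3 in WT neurons (79.1 RPKM), and Aff1 from rank 11 (44.8 RPKM) to rank 44 (3.19 RPKM). Tcea3 fell from 23.8, 27.8 and 29.97 CPM to 3.28, 5.04 and 4.22 CPM (−2.70 ± 0.17, FDR = 6.72e-12), while Tcea2 rose from 1.28, 1.29 and 1.83 CPM to 6.22, 5.10 and 5.22 CPM (1.90 ± 0.18, FDR = 2.76e-09). Ell2 fell from 44.9, 42.7 and 37.7 CPM to 10.1, 11.9 and 12.2 CPM (−1.87 ± 0.15, FDR = 1.7e-10). None of these 5 genes had overlapping ESC and neuron libraries. Ssrp1 was the most abundant member per length in WT ESCs and WT neurons (168 and 110 RPKM), with Nudt21 next (138 and 87.8 RPKM).

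The genotype change itself was compared between stages by the interaction term of the same model, and these comparisons share the ESC samples. For members named because of a large change at a stage, the interaction is no independent test. Relative to ESCs, the change was higher for 6 members and lower for 5 in NPCs, where 13.6% of all genes were higher and 11.0% lower. In PSA-NCAM+ cells it was higher for 5 and lower for 10 (15.1% and 12.0% of all genes), and without slow/slow replicate 1 it was higher for 13 and lower for 11 (22.9% and 19.4% of all genes). In neurons it was higher for 4 and lower for 16 (20.5% and 21.6% of all genes), with 8 and 8 under upper-quartile scaling (25.7% and 14.9% of all genes), which moved the median of all genes from −0.03 to 0.13. Larp7, Top1, Top2b and Ell2 were among the members whose change was higher than that of ESCs at both intermediate stages, and Ctr9 and Tcea3 among those lower at both.

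The same fit was read for 55 further genes of elongation, 3′ end processing and termination. Of these, 12 rose and 2 fell in ESCs, 25 and 4 in NPCs, 18 and 7 at the PSA-NCAM+ stage, and 7 and 13 in neurons, with median log2 changes of 0.13, 0.24, 0.11 and −0.02. The shares of all genes that rose and fell were 18.5% and 21.9%, 29.3% and 27.4%, 28.6% and 28.1%, and 23.4% and 28.4%. Hexim2, the relative of Hexim1, fell in PSA-NCAM+ cells by 0.72 ± 0.15 (FDR = 0.000452) and in neurons by 1.41 ± 0.15 (FDR = 2.07e-07). Sfpq, a paraspeckle protein that binds nascent RNA, rose in ESCs by 0.52 ± 0.13 (FDR = 0.00286), in NPCs by 1.16 ± 0.13 (FDR = 4.34e-07) and in PSA-NCAM+ cells by 0.86 ± 0.13 (FDR = 1.35e-05). Rprd1a, which binds the CTD, rose in PSA-NCAM+ cells by 1.00 ± 0.09 (FDR = 2.31e-08). Mllt3, a partner of Aff proteins in the super elongation complex, changed direction with the stage, with a fall of 0.58 ± 0.11 in ESCs (FDR = 0.000217), a rise of 0.76 ± 0.10 in PSA-NCAM+ cells (FDR = 4.62e-06) and a fall of 0.84 ± 0.10 in neurons (FDR = 1.38e-06).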

How the data were processed

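RNA was sequenced by the authors as stranded poly(A) libraries in 24 samples (8 groups of 3). The reads were processed with vast-tools on mm9. The authors deposited raw counts per gene, which are the values tested here, mean RPKM per group, used only to order genes by level, and, per event and sample, the percent spliced in with the inclusion and exclusion reads and a quality score behind it. Columns of the authors' own log2 fold changes and p-values hold their comparisons and were not used, and 0 columns of unmapped samples were found. The strand setting of the counting is not given in the sources used here.

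Counts of 16627 genes that passed filterByExpr (of 21553 with counts) were scaled by TMM and fitted in edgeR 4.0.16 (R 4.3.3) as 8 groups, with 16 residual degrees of freedom and a common biological coefficient of variation of 0.164. Contrasts were tested by the quasi-likelihood test, and a gene was called at a Benjamini-Hochberg FDR below 0.05 over all genes tested. CPM values are counts scaled by library size, and ± after a log2 change is its standard error. Splicing events were filtered on coverage in all 6 samples of a stage, and read counts were turned into beta posteriors pooled over replicates. They were also filtered on junction balance, except for microexons such as that of Supt5. The paper applied its balance score to microexons as well. limma 3.58.1 and DESeq2 1.42.0 served as alternatives, and the procedures were tested on simulated data. The members and the lists were chosen with earlier results of these data known. Values per sample were given for the 5 members with the largest called change at each stage and between WT neurons and WT ESCs, for those called one way at all 4 stages and, without a rule, for others that illustrate their group. Named splicing events are those called at any stage, and the further pathway genes named were chosen after their values were seen.

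Replicate numbers come from the labels. In PSA-NCAM+ cells same-numbered WT and slow/slow libraries deviated together from their group means, with correlations over genes of 0.54, 0.45 and 0.40, so the numbers were treated as pairs there. The labels state no pairing, and deviations of libraries with different numbers were not compared. Replicate 1 was the library least like its group mates in both genotypes (0.978 in WT and 0.962 in slow/slow cells). Positions and exon sequences come from GRCm38 with GENCODE vM21. Member exons were matched between builds by length and by the distances to neighbouring exons, and no coordinate was converted.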

Additional observations from a re-analysis of the deposited data

Results flagged for a closer look

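Members named at a stage by the size of their change were tested for a genotype change that differed from that in ESCs, by the interaction term of the edgeR model with FDR below 0.05 over all genes. In NPCs the change was larger than in ESCs by 0.57 for Larp7 (FDR = 0.00283), by 0.95 for Top1 (FDR = 0.00105), by 0.87 for Top2b (FDR = 0.00516) and by 0.51 for Cpsf2 (FDR = 0.0462), on the log2 scale.

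In PSA-NCAM+ cells the difference from ESCs was 0.50 for Larp7 (FDR = 0.00562), 0.77 for Top1 (FDR = 0.00398), 0.73 for Top2b (FDR = 0.0144), −0.83 for Ctr9 (FDR = 0.000866) and −0.50 for Nelfa (FDR = 0.0183).

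In neurons the difference from ESCs was −2.76 for Tcea3 (FDR = 3.43e-08), −1.08 for Ell3 (FDR = 0.000533), −0.65 for Cdk12 (FDR = 0.00494), −0.47 for Nelfa (FDR = 0.0177) and 0.70 for Tcea2 (FDR = 0.0262). Tcea3 rose in slow/slow ESCs by 0.96 and its log2 change in neurons was −1.80.

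The genotype difference in PSI of the Supt5 microexon differed between stages in an exact permutation test of genotype labels within stages, which was run on exons already called changed at a stage and did not use the pairing of the PSA-NCAM+ libraries, so it is no independent test. It was −15.4 points in NPCs relative to ESCs, −19.5 points in PSA-NCAM+ cells relative to ESCs, 30.5 points in neurons relative to NPCs and 34.6 points in neurons relative to PSA-NCAM+ cells.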

How the results depend on the processing

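Of 1340 values of single called members under the alternatives tried, 1187 kept direction and call, 147 kept direction and lost the call, and 6 changed sign. The 6 arose when the chromosome median was subtracted: Ccnt1 at 0.081 in ESCs, 0.18 in NPCs and 0.14 in PSA-NCAM+ cells, Cpsf1 at 0.15 in ESCs and 0.19 in PSA-NCAM+ cells, and Ell at −0.070 in ESCs. Of the lost calls, 80 arose when 1 library was left out, 17 with upper-quartile scaling, 16 in the fit of a stage alone, 15 with the chromosome median subtracted, 7 in the paired fit of the PSA-NCAM+ libraries alone (chosen after seeing the data), 5 with no filter, 3 with the replicate block, 2 with median-of-ratios scaling and 2 with DESeq2. Fitting only the libraries of the stage gave 8 changed members in PSA-NCAM+ cells (24 in the joint fit, and 17 with the replicate block in the fit of the stage) and 36 in neurons (20 in the joint fit), and the cause was not tested. Without slow/slow PSA-NCAM+ replicate 1, the genotype change of 24 members differed from that in ESCs, against 15. With splicing differences over 15 points, which keeps fewer events by construction, 0 member events were called in NPCs and 1 in neurons, and with limma 0 were called in PSA-NCAM+ cells.

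Leaving out 1 library gave 14 to 17 changed members in ESCs, 28 to 31 in NPCs, 22 to 31 in PSA-NCAM+ cells and 17 to 19 in neurons. In WT cells it gave 26 to 29 for NPCs, 26 to 29 for PSA-NCAM+ cells and 31 to 34 for neurons against ESCs. Changes that differed from ESCs numbered 10 to 14, 12 to 24 and 17 to 20, and splicing events 0 in ESCs, 2 to 3 in NPCs, 1 in PSA-NCAM+ cells and 2 to 3 in neurons.

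With the replicate block, 18, 34, 25 and 21 members were changed at the 4 stages, 28, 29 and 36 in the WT course, and 12, 16 and 20 differed from ESCs, and 3 single calls were lost, those of Nelfb and Gtf2f1 in ESCs and Supt6 in NPCs. In ESCs, NPCs and neurons same-numbered libraries did not deviate together (mean correlations −0.02, −0.05 and −0.02), so the samples shared only a number there.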
